A study of Homo sapiens with 12 samples.

Results

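The genes described here encode the CD3 chains of the T cell receptor complex (CD3D, CD3E and CD3G), the co-receptors CD4, CD8A and CD8B, the lymphocyte surface proteins CD5, CD6 and CD7, and the transmembrane adaptor TRAT1. They were listed by gene symbol as genes by which T cells are usually recognised, and all 10 were found among the 17589 genes of the expression table. RNA-seq had been performed on unstimulated YT cells, a human NK-like lymphoid cell line that lacks its own CD16a. The cells of all 4 groups had been infected with a lentiviral vector: CTRL cells carried eGFP, hnCD16 cells a CD16a variant, FR1 cells the fusion hnCD16-2B4-DAP10-CD3ζ, and FR2 cells hnCD16-DAP10-CD3ζ without the 2B4 domain. The receptors were driven by a constitutive EF1A promoter, and eGFP-positive cells had been sorted and expanded, so each group was 1 transduced and sorted population. Each group had 3 libraries, and since no label says that these came from separate cultures, the p-values measure the spread between libraries, which may be technical.

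On T cells, the CD3γ, CD3δ and CD3ε chains form dimers around the antigen-binding chains, and the activation motifs in their tails, together with those of the ζ chain, pass the signal to the kinase ZAP70. CD4 and CD8 bind MHC class II and class I and bring the kinase LCK to the complex. CD5 and CD6 are related scavenger-receptor proteins that tune this signal, CD7 is an early marker shared by T and NK cells, and TRAT1 is a small adaptor held in the receptor complex. Mature NK cells lack surface CD3 but often carry CD7, can express CD8α, and may hold CD3ε inside the cell.

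All 10 genes lay lower in the FR1 and FR2 libraries than in the CTRL and hnCD16 libraries, and no library of one pair of groups overlapped with the other pair. How many of all tested genes also lacked overlap was not counted, so this is not read as particular to the 10. CD3D was the highest of the 10 in CTRL and hnCD16 and fell to between 0 and 3 counts, TRAT1 fell from at least 1312 to between 1 and 7 counts, and CD4, CD6, CD8A and CD8B fell to at most 3 counts. CD3E alone stayed at a substantial level, with a 2.63-fold to 3.81-fold decrease. CD3G, CD5 and CD7 remained countable at between 13 and 45 counts per library. Between CTRL and hnCD16 the same genes differed by less than 2-fold, and between FR1 and FR2 only CD3E passed the adjusted p among those that could be compared.

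The genes sit at 6 places in the genome (GRCh38, GENCODE v44). CD3E (chr11:118304730-118316175, plus strand), CD3D (chr11:118339075-118342705, minus strand) and CD3G (chr11:118344344-118355161, plus strand) are neighbours, and the starts of CD3D and CD3G lie back to back 1.64 kb apart. CD6 (chr11:60971680-61020377) and CD5 (chr11:61102489-61127852) lie on the plus strand of the same chromosome, 82.1 kb apart. CD8A (chr2:86784610-86808396) and CD8B (chr2:86815339-86861924) are on the minus strand, 6.94 kb apart. CD4 is at chr12:6786858-6820799 (plus), TRAT1 at chr3:108822770-108855005 (plus) and CD7 at chr17:82314868-82317608 (minus).

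The sequences before the starts of CD3D and TRAT1 are shown because these genes had the largest decreases. They are the 250 bases upstream of the RefSeq start (GRCh38.p14), CD3D at chr11:118342706-118342955 on the minus strand, inside the interval that it shares with CD3G, and TRAT1 at chr3:108822536-108822785 on the plus strand. RefSeq promoter entries existed for 3 of the 10 genes (CD3D, TRAT1 and CD8A, the last with 4 starts). Capitals mark matches on either strand to 5 short motifs: TGTGGT for the RUNX factors, GGAAG for the ETS factors, AGATAA for the zinc-finger factors named after their GATA site, CAGCTG for E-box proteins, and CTTTGA for TCF and LEF factors.
CD3D: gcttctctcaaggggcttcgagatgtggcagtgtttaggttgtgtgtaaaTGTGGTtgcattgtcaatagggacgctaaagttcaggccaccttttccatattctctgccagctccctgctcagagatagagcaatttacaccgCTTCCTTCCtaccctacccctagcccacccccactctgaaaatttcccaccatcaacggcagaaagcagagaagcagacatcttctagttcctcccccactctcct
TRAT1: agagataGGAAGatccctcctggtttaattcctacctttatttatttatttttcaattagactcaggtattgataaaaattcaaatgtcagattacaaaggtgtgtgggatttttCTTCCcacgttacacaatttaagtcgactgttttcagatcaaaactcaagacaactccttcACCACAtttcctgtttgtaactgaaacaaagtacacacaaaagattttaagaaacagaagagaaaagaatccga
Both windows held 1 RUNX match (forward in CD3D, reverse in TRAT1) and 2 ETS matches, which overlap by a base in CD3D. Neither held the other 3 motifs. Among 35116 promoter windows of the same length, 11% held the RUNX motif, 65.1% the ETS motif, 9.17% the GATA motif, 14.0% the E-box and 11.2% the TCF/LEF motif. A match describes letters only and is no evidence of binding.

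The libraries held 17714550 to 18729013 counts each. On the first principal component, with 96.3% of the variance, the FR1 and FR2 libraries stood apart from the CTRL and hnCD16 libraries, and between these pairs the presence of the intracellular domains and any other difference between the cell populations cannot be told apart. FCGR3A, the CD16a gene that 3 of the 4 constructs carry, was at 0 counts in CTRL, and its counts ran from 453 to 480 with hnCD16, from 559 to 567 with FR1 and from 1012 to 1132 with FR2 (its near-identical copy FCGR3B makes these values uncertain). The NK label was checked against 17 marker genes, 16 of them in the table. Their summed level in CPM (counts scaled to the library total) ran from 43.8 to 48.5 for CTRL and from 45.6 to 50.0 for hnCD16, against 1625 to 1701 for FR1 and 1625 to 1680 for FR2. In CTRL and hnCD16 the defining marker NCAM1 had 0 to 4 counts, NCR1 (NKp46) 0 to 5, the transcription factor TBX21 0 to 4, granulysin (GNLY) 0 to 4 and perforin (PRF1) 5 to 13, whereas FR1 and FR2 had 21 to 42 counts of NCAM1 and 6854 to 9722 of PRF1. Not all NK markers followed this split: KLRD1 (CD94) had 202 to 267 counts in CTRL and hnCD16 and 225 to 282 in FR1 and FR2, and NCR3 (NKp30) was higher in CTRL and hnCD16, at 101 to 109 counts against 0 to 17. EOMES (115 to 205 counts), NKG7 (177 to 256) and CD244 (115 to 185) were present in CTRL and hnCD16, though higher in FR1 and FR2. KLRF1, KLRB1 and TYROBP were low in all groups, with at most 5 counts in any FR1 or FR2 library and at most 7 in any CTRL or hnCD16 library. By NCAM1, NCR1, TBX21, GNLY and PRF1 the CTRL and hnCD16 libraries go against the NK label, but not by every listed marker. What part this has in the results below was not tested. In bulk RNA, fewer cells with a transcript and less transcript per cell cannot be told apart.

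**Figure D1:**
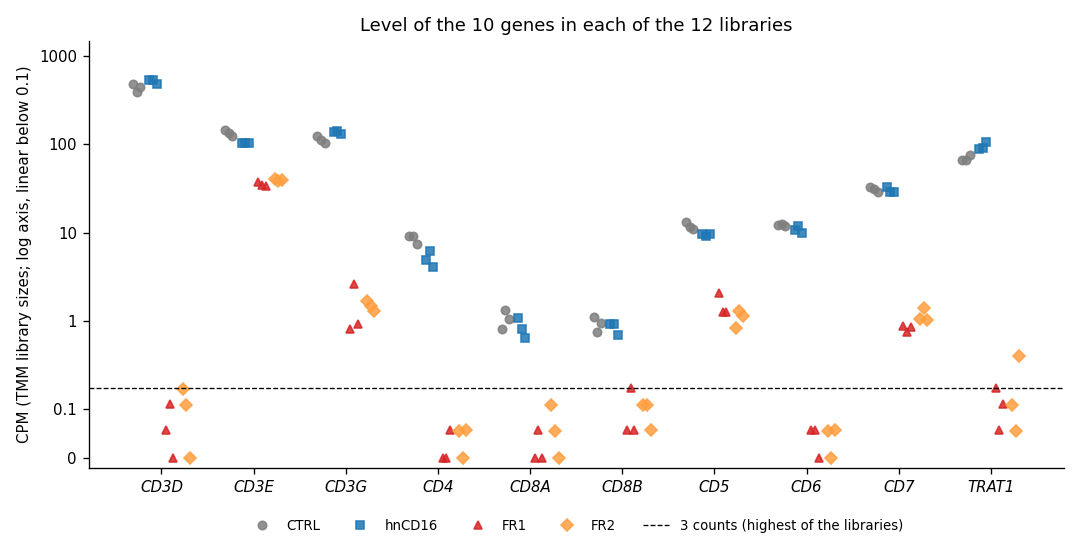
Level of the 10 genes in each of the 12 libraries, in CPM on a log axis that is linear below 0.1, with 1 point per library and the groups by colour and shape. The dashed line is the CPM of 3 counts. CD3D, CD4, CD6, CD8A and CD8B lie at or under that line in the FR1 and FR2 libraries, and CD3E lies between 34.0 and 40.1 CPM there.

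CD3D encodes CD3δ. It had 9371, 7757 and 9085 counts in the CTRL libraries and 9873, 9903 and 9218 in the hnCD16 libraries, against 1, 2 and 0 in FR1 and 3, 2 and 0 in FR2. Every FR library was thus at or under 3 counts, the floor below which no fold change is given here. Taken against that floor, CD3D was at least 3013-fold lower in FR1 and at least 3067-fold lower in FR2 than in hnCD16 (edgeR quasi-likelihood test, Benjamini-Hochberg adjusted p = 1.46e-19 and 1.41e-19), and at least 2544-fold and 2590-fold lower than in CTRL.

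CD3E encodes CD3ε, the partner of both other chains. Its counts were 2828, 2662 and 2517 in CTRL, 1932, 1936 and 1936 in hnCD16, 642, 596 and 595 in FR1, and 717, 683 and 699 in FR2. The 4 groups did not overlap and stood in the order CTRL, hnCD16, FR2, FR1. The log2 fold change against hnCD16 was -1.57 ± 0.059 (SE) in FR1 and -1.40 ± 0.058 in FR2 (edgeR adjusted p = 4.92e-14 and 2.04e-13), and against CTRL it was -1.93 and -1.76. CD3E was called in each of the 15 alternative settings in all 4 of these comparisons.

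CD3G encodes CD3γ. It had 2424, 2260 and 2094 counts in CTRL and 2563, 2607 and 2502 in hnCD16. In FR1 the libraries held 14, 45 and 16 counts and in FR2 30, 26 and 23, so that CD3G was low but not at the floor, and FR1 replicate 2 stood above the other FR1 libraries. The log2 fold change against hnCD16 was -6.57 ± 0.17 (SE) in FR1 and -6.52 ± 0.16 in FR2 (edgeR adjusted p = 1.56e-16 and 1.46e-16), and against CTRL it was -6.30 and -6.25. Without FR1 replicate 2 the FR1 values were -7.31 against hnCD16 and -7.03 against CTRL.

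Per transcript length, the make-up of the CD3 chains differed between the groups. TPM, the deposited abundance unit, corrects for transcript length and so allows genes to be compared. In CTRL, CD3D stood at 1321 ± 130 TPM (SD, n = 3), CD3E at 200.2 ± 5.55 and CD3G at 138 ± 8.31; in hnCD16 the means were 1409 ± 32.5, 140.2 ± 3.78 and 155 ± 0.841. In FR1, CD3D had 0.15 ± 0.15 TPM, CD3E 45.1 ± 1.68 and CD3G 0.923 ± 0.639, and in FR2 the values were 0.247 ± 0.228, 51.1 ± 1.71 and 0.96 ± 0.121. CD3E therefore made up 11.2% to 13.2% of the summed CD3 TPM in CTRL, 8.05% to 8.57% in hnCD16, and 95.7% to 98.7% in FR1 and FR2. By TPM, CD3D ranked between 107 and 124 of all genes in the CTRL and hnCD16 libraries, and CD3E fell from ranks 747 to 1131 there to ranks 2641 to 3149 in the FR libraries.

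The co-receptors were low in every group. CD4, which binds MHC class II, had 179, 186 and 150 counts in CTRL and 90, 114 and 78 in hnCD16, against at most 1 count in any FR1 or FR2 library. CD4 was at least 29.3-fold lower in FR1 and at least 29.9-fold lower in FR2 than in hnCD16 (edgeR adjusted p = 5.45e-11 and 5.77e-11), and at least 50.0-fold and 50.9-fold lower than in CTRL. CD4 stood at 5.53 ± 0.601 TPM (SD, n = 3) in CTRL and 2.96 ± 0.541 TPM in hnCD16, so it was far below the CD3 chains even where it was highest.

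CD8A encodes the CD8α chain, which can form a homodimer, and CD8B encodes CD8β, which pairs with it. CD8A had 16, 27 and 21 counts in CTRL, 20, 15 and 12 in hnCD16, 0, 1 and 0 in FR1, and 2, 1 and 0 in FR2. CD8B had 22, 15 and 19 counts in CTRL, 17, 17 and 13 in hnCD16, 1, 3 and 1 in FR1, and 2, 2 and 1 in FR2. Against hnCD16, CD8A was at least 4.89-fold lower in FR1 (edgeR adjusted p = 6.26e-06) and 4.98-fold lower in FR2 (adjusted p = 1.93e-05), and CD8B at least 4.89-fold and 4.98-fold lower (adjusted p = 9.54e-06 and 8.23e-06). The counts of both genes are small, and at 0.583 to 0.903 TPM on average CD8A was near the limit of detection in CTRL and hnCD16 too. CD8B shares reads with its near-identical copy CD8B2, which had 2 to 10 counts in the libraries, 2 to 9 of them in FR1 and FR2, so the CD8B values are uncertain. On the log2(TPM + 1) scale of limma, CD8A stayed below 0 in these comparisons but inside the fold threshold, at -0.65 in FR1 and -0.61 in FR2 against hnCD16 and at -0.91 and -0.88 against CTRL.

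CD5 carries an inhibitory signal on T cells. It had 258, 232 and 221 counts in CTRL, 178, 170 and 182 in hnCD16, 36, 22 and 22 in FR1, and 15, 23 and 20 in FR2. It was the member with the smallest decrease after CD3E among those with a fitted fold change, with a log2 fold change against hnCD16 of -2.63 ± 0.16 (SE) in FR1 and -3.11 ± 0.17 in FR2 (edgeR adjusted p = 6.93e-11 and 1.43e-11).

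CD6, the neighbour and relative of CD5, had 238, 251 and 237 counts in CTRL and 198, 220 and 186 in hnCD16, and 0 or 1 in each FR1 and FR2 library. CD6 was at least 62.8-fold lower in FR1 and 63.9-fold lower in FR2 than in hnCD16 (edgeR adjusted p = 2.82e-14 and 2.43e-14). In CTRL, CD5 and CD6 had like levels, 7.34 ± 0.384 and 7.57 ± 0.317 TPM (SD, n = 3), whereas in FR1 CD5 kept 0.787 ± 0.228 TPM and CD6 0.02 ± 0.017.

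CD7, found on both T and NK cells, had 646, 629 and 588 counts in CTRL and 609, 535 and 540 in hnCD16. It had 15, 13 and 15 counts in FR1 and 19, 25 and 18 in FR2. The log2 fold change against hnCD16 was -5.18 ± 0.13 (SE) in FR1 and -4.68 ± 0.12 in FR2 (edgeR adjusted p = 1.67e-16 and 2.46e-16). The low CD7 level thus stood in the libraries with the higher NK marker level.

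TRAT1 had 1312, 1336 and 1527 counts in CTRL and 1615, 1692 and 2021 in hnCD16. The FR1 libraries had 3, 1 and 2 counts and the FR2 libraries 2, 1 and 7. TRAT1 was at least 553-fold lower in FR1 than in hnCD16 (edgeR adjusted p = 1.65e-17) and at least 405-fold lower than in CTRL. In FR2, where 1 library was above the floor, the fitted log2 fold change was -8.93 ± 0.19 (SE) against hnCD16 and -8.48 ± 0.20 against CTRL (adjusted p = 1.60e-17 and 5.23e-17). Without that library, FR2 replicate 3, the fitted values were -10.03 and -9.58, but FR2 was then at the floor, and TRAT1 was at least 566-fold and 414-fold lower. At 77.1 ± 8.79 TPM in CTRL and 94.9 ± 14.0 TPM in hnCD16 (SD, n = 3), TRAT1 came next below the CD3 chains. In CTRL the order of TPM levels went on with CD7 (49.5 ± 0.881), CD6, CD5, CD4, CD8B (2.06 ± 0.381) and CD8A (0.903 ± 0.191), in which CD6 and CD5 overlapped over their libraries. In hnCD16 CD3G (154 to 156 TPM) stood above CD3E (136 to 144), CD7 was at 43.2 ± 2.26, and CD6 (5.93 to 6.64) stood above CD5 (5.08 to 5.51).

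A gene was called where the adjusted p was 0.05 or lower and the log2 fold change was 1 or more in either direction. All 10 genes were called lower in each of the 4 comparisons between the pairs. Over all 13657 genes tested, the share called was 38.3% in FR1 against hnCD16 (19.6% lower), 39.5% in FR2 against hnCD16 (19.8% lower), 38% in FR1 against CTRL (19.8% lower) and 38.2% in FR2 against CTRL (19.6% lower). The median fitted log2 fold change of the 10 genes against hnCD16 was -5.88 in FR1 and -5.60 in FR2, or -5.03 and -4.79 with genes at the floor set to their bound, beside medians of -0.01 and -0.03 over all tested genes. The comparisons of FR1 and FR2 share their control libraries. All 10 passed the filter on low counts, but 6 of them (CD3D, CD4, CD6, CD8A, CD8B and TRAT1) passed only through the CTRL and hnCD16 libraries and had to differ, and 4 (CD3E, CD3G, CD5 and CD7) had at least 10 counts in every library. These 4 were all called lower in the 4 comparisons when only genes with that many counts were tested.

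Within the pair of CTRL and hnCD16, the labelled difference was the CD16a variant. No gene was called with the fold threshold by edgeR or by DESeq2 (0.527% of all tested genes were called by edgeR), 6 had an unadjusted p under 0.05, and the same 6 passed the adjusted p alone, beside 43% of all tested genes. TRAT1 was higher in hnCD16, by a log2 fold change of 0.45 ± 0.081 (SE; edgeR adjusted p = 0.00039). CD3D and CD3G were also higher, by 0.24 ± 0.076 (adjusted p = 0.015) and 0.28 ± 0.096 (adjusted p = 0.0275). CD3E, CD4 and CD5 were lower, with log2 fold changes of -0.37 ± 0.054 (adjusted p = 9.13e-05), -0.77 ± 0.15 (adjusted p = 0.000731) and -0.33 ± 0.11 (adjusted p = 0.0275). The remaining 4, CD6 (-0.17 ± 0.10), CD7 (-0.05 ± 0.072), CD8A (-0.34 ± 0.32) and CD8B (-0.15 ± 0.28), did not pass, with adjusted p from 0.205 to 0.709, and their libraries overlapped between the groups.

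The chains of the CD3 cluster therefore moved in opposite directions between these groups, and the ratio of CD3D to CD3E in TPM was 5.87 to 7.27 in CTRL and 9.59 to 10.3 in hnCD16, without overlap. The ratio of CD3G to CD3E was 0.662 to 0.706 in CTRL and 1.08 to 1.13 in hnCD16. The changes of CD3E and CD4 passed the adjusted p under each alternative setting run for them, 15 and 14 in number. The increase of TRAT1 ranged from 0.29 to 0.51 over 14 settings and did not pass in 2 of them. The increases of CD3D and CD3G and the decrease of CD5 kept their sign in all settings, with log2 fold changes of 0.10 to 0.31, 0.16 to 0.34 and -0.48 to -0.25, but did not pass in 5 of 14, 8 of 15 and 4 of 15 of them. DESeq2 passed 4 of the 6 genes, without CD3G (adjusted p = 0.393) and CD5 (adjusted p = 0.0790). With libraries left out, CD3D did not pass the adjusted p without CTRL replicate 2 or hnCD16 replicate 2 (adjusted p = 0.179 and 0.0614 by edgeR). CD3G did not pass without CTRL replicates 2 or 3 or hnCD16 replicates 1 or 2 (edgeR adjusted p = 0.0565 to 0.117). CD5 did not pass without CTRL replicate 1 or hnCD16 replicates 1 or 2 (edgeR adjusted p = 0.0513 to 0.116). Without hnCD16 replicate 2, 3 of the 10 genes passed in place of 6. Scaling by library size alone shifted the median of all genes in this comparison to -0.12 and left CD3D at 0.13 and CD3G at 0.16 (adjusted p = 0.175 and 0.198). Neither gene passed in limma on TPM with either pseudocount (adjusted p = 0.473 to 0.936).

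FR1 differs from FR2 by the 2B4 domain. Of the 10 genes none was called by edgeR or by DESeq2, beside 1.93% of all tested genes by edgeR, 1 had an unadjusted p under 0.05, and this gene passed the adjusted p alone, beside 36.2% of all tested genes. CD3E was slightly lower in FR1 than in FR2, at 35.2 ± 1.70 against 39.6 ± 0.818 CPM (SD, n = 3), a log2 fold change of -0.17 ± 0.062 (SE; edgeR adjusted p = 0.0412). The CD3E libraries of the groups did not overlap, but CD3E did not pass when FR1 replicates 2 or 3 or FR2 replicates 2 or 3 were left out (edgeR adjusted p = 0.0614 to 0.140). CD5 was at 1.54 ± 0.473 CPM in FR1 and 1.09 ± 0.235 in FR2 (log2 fold change 0.49 ± 0.25, adjusted p = 0.147), and CD7 at 0.825 ± 0.064 and 1.17 ± 0.213 CPM (-0.50 ± 0.25, adjusted p = 0.161). CD3G gave -0.05 ± 0.34 (adjusted p = 0.943) and, without FR1 replicate 2, -0.78 (adjusted p = 0.0323). For CD3D, CD4, CD6, CD8A and CD8B both groups were at the floor and no fold change is given. TRAT1 was at the floor in FR1 and reached 7 counts in 1 FR2 library, and its groups overlapped.

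**Figure D2:**
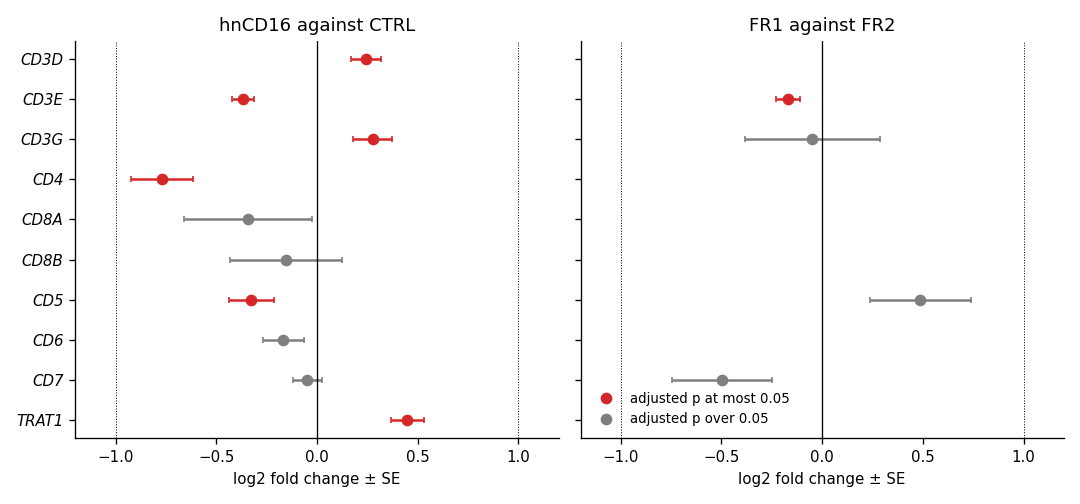
Log2 fold change with SE of the 10 genes in hnCD16 against CTRL (left) and, for the 4 genes above the floor in both groups, in FR1 against FR2 (right). Red points have an adjusted p of at most 0.05, grey points a higher one, and dotted lines mark the fold threshold. CD4 at -0.77 is the farthest from 0, and no point reaches the threshold.

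The counts of a gene were divided by RSEM among its RefSeq transcripts, and for CD3D, TRAT1 and CD7 the few counts left in the FR libraries were placed on another transcript than the one that carried most counts in CTRL and hnCD16. CD3D had 2 transcripts, of which NM_000732 held 95.6% ± 0.444 of the counts in CTRL and 94.7% ± 0.059 in hnCD16 (SD, n = 3), while all 3 counts of FR1 and all 5 of FR2 were on NM_001040651. For TRAT1, all 4175 CTRL and 5328 hnCD16 counts were on NM_016388, and all 6 FR1 and 10 FR2 counts on NM_001317747. For CD7, NM_006137 held 90.7% ± 2.24 in CTRL and 95.1% ± 4.31 in hnCD16, and all 43 counts of FR1 and 62 of FR2 were on XM_011523608.

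In CD3G and CD5 the FR counts instead gathered on a transcript that was also well covered in the other groups. CD3G had 62.9% ± 2.40 of the CTRL counts and 59.9% ± 1.73 of the hnCD16 counts (SD, n = 3) on NM_000073 and 33.3% ± 2.52 and 36.6% ± 1.67 on XM_006718941. In FR1 and FR2 the 75.6 and 79.4 counts of CD3G were all on NM_000073. CD5 was split between NM_001346456 (46.4% ± 5.72 in CTRL and 59.3% ± 7.85 in hnCD16) and NM_014207, and in FR1 and FR2 the 80.5 and 58.5 counts were all on NM_001346456. CD3E has 1 transcript in the table, NM_000733. CD8B had most of its few counts on NM_001178100 (65.3% ± 8.48 in CTRL and 89.2% ± 18.7 in hnCD16) of 5 transcripts, and none there in FR1 and FR2. The shares of CD4, CD6 and CD8A among their 8, 9 and 4 transcripts varied widely between replicates (CD4 NM_001382707 held 27.7% ± 26.2 in CTRL). These shares are estimates from reads that transcripts of a gene have in common, and with counts this low they describe where reads were placed and not which transcript was made. They also affect TPM, since a shorter or longer transcript changes the length divided by: CD8B fell from 0.845 to 0.096 CPM but from 1.79 to 0.03 TPM between hnCD16 and FR1.

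The nearest protein-coding genes of the table on each side of the 6 loci were compared with the 10 genes. Of 24 neighbours 18 were tested, and in FR1 against hnCD16 5 were called lower and 6 higher, with fitted log2 fold changes from -3.52 to 6.66, 1 gene (P3H3) at the floor, and a median of 0.41 with that gene at its bound. Over all tested genes, 19.6% were called lower and 18.7% higher in this comparison. Of the neighbours called, LAG3 passed the filter on low counts only through FR1 and FR2, and P3H3 only through CTRL and hnCD16. These neighbours had to differ. Next to the CD3 cluster, UBE4A, a ubiquitin ligase gene 4439 bases beyond CD3G, was at 177.6 CPM in hnCD16 and 273 in FR1 (log2 fold change 0.62, edgeR adjusted p = 2.64e-09), ATP5MG, an ATP synthase subunit, gave 0.85, and MPZL3 on the other side rose by 1.22. The low level of CD3D and CD3G was thus not shared by the tested genes on either side of the cluster.

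CD4 lies between genes that moved in both directions. LAG3, the inhibitory receptor gene 8403 bases before CD4, went from 0 to 5 counts with hnCD16 up to 217 to 243 counts with FR1 (log2 fold change 6.66, edgeR adjusted p = 4.23e-14), and PTMS before it rose by 5.54. Beyond CD4, P3H3 had 9 to 20 counts with hnCD16 and 0 or 1 with FR1, at least 4.16-fold lower (adjusted p = 1.73e-05), and GPR162, at 3 to 11 counts in CTRL and hnCD16, had 0 in all FR libraries. Since LAG3 and P3H3 had to differ once they passed the filter on low counts, their p-values add no evidence. VPS37C, 2405 bases beyond CD5, rose by 1.04 in FR1 against hnCD16, while the genes before CD6 had at most 3 counts in any library. Around CD8A and CD8B, RMND5A (-1.51) and RGPD1 (-2.58) fell and RNF103-CHMP3 (-0.85) and PLGLB1 (-0.72) lay below 0; RGPD1 and PLGLB1 have near-identical copies and are uncertain. Around CD7, SLC16A3 fell by 1.27 and TEX19 rose by 6.08. The genes of the table around TRAT1 lie far from it. DZIP3, 127930 bases before TRAT1, rose by 3.40, and NECTIN3, 2215066 bases beyond it, fell by 3.52.

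The other chains of the receptor complex could be followed in part. Of 8 listed genes 2 were in the table, and TRAC, TRBC1, TRBC2, TRDC, TRGC1 and TRGC2 were not analysed here. CD247, the ζ chain, was not lower: its counts ran from 1469 to 1628 for CTRL and from 1495 to 1573 for hnCD16, and from 1785 to 1819 for FR1 and from 2091 to 2160 for FR2. The FR1 and FR2 constructs carry CD3ζ sequence, and reads of the construct and of the cell's own gene cannot be told apart in these counts. PTCRA, the surrogate α chain of immature T cells, had 3 to 5 counts in CTRL and hnCD16 and at most 3 in FR1 and FR2, and was not tested.

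Among 6 other transmembrane adaptors, 3 were called lower and none higher in FR1 against hnCD16, with a median log2 fold change of -0.81. Over all tested genes, 19.6% were called lower and 18.7% higher there. In FR2 against hnCD16, 2 were called lower and none higher, with a median of -0.51 and LIME1 (-0.68) not called. The shares of all tested genes there were 19.8% lower and 19.6% higher. The folds that follow are for FR1 against hnCD16. SIT1, which like TRAT1 is a small adaptor of the receptor complex, had 1245 to 1554 counts in CTRL and hnCD16 and 1 to 3 in FR1 and FR2, at least 409-fold lower in FR1 than in hnCD16 (edgeR adjusted p = 2.77e-18). PAG1, which holds the kinase CSK at the membrane, was 18.9-fold lower, and LIME1 2.15-fold lower. LAT, the central adaptor of T cell signalling, was 1.42-fold lower (log2 fold change -0.51, adjusted p = 4.24e-07) and did not reach the threshold, and LAT2 gave -0.18 (adjusted p = 0.484).

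Of the listed ligands of CD4, CD6 and CD7, 4 of 5 were tested in FR1 against hnCD16, with 2 called lower and 1 higher. Over all tested genes, 19.6% were called lower and 18.7% higher. IL16, whose product binds CD4, had 137 to 182 counts in CTRL and hnCD16 and 0 or 1 in FR1 and FR2. ALCAM, which binds CD6, was 6.01-fold lower in FR1 than in hnCD16 (edgeR adjusted p = 2.04e-13), and CDCP1, another CD6 ligand, gave a log2 fold change of -0.29 (adjusted p = 0.380). LGALS1, or galectin-1, which binds CD7, was 6.21-fold higher (adjusted p = 2.49e-17). SECTM1, the CD7 ligand encoded 3416 bases from CD7, had at most 4 counts in any library.

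Other T cell surface genes moved both ways. Of 14 listed genes 12 were tested, and in FR1 against hnCD16 5 were called lower and 3 higher, beside 19.6% and 18.7% of all tested genes. In FR2 against hnCD16 these were 5 and 3, beside 19.8% of all tested genes called lower and 19.6% higher. CD44, an adhesion receptor, was at least 257-fold lower in FR1 than in hnCD16, CD69, an early activation marker, 36.5-fold lower and CD96 8.05-fold lower. CD28, a costimulatory receptor, was 29.9-fold higher, and CTLA4, listed with 0 counts in each CTRL and hnCD16 library, was at least 72.1-fold higher. CD2, a T and NK cell adhesion receptor, had at most 3 counts in any library, and CD40LG at most 6.

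Markers of other cell types were set beside these values. Of 12 tested NK markers, 9 were called higher and 1 lower in FR1 against hnCD16, beside 18.7% of all tested genes called higher and 19.6% lower, with TBX21, NCR1, GNLY and CD160 among the higher ones and NCR3 (6.72-fold lower) as the lower one. In FR2 against hnCD16, 9 were higher and 2 lower, beside 19.6% of all tested genes called higher and 19.8% lower. The lower ones were NCR3 (40.3-fold) and FCER1G (edgeR adjusted p = 0.0253, with overlapping libraries). However, NCAM1, NCR1, TBX21, GNLY and PRF1 passed the filter on low counts only through FR1 and FR2 and had to differ. KLRF1, KLRB1, TYROBP and SH2D1B, with at most 10 counts in any library, were not tested. From the other lists, PAX5, ITGAM and CTLA4 also passed only through FR1 and FR2. SIT1, IL16, CD44, CD69, CD79A, CD79B and ICOS passed only through CTRL and hnCD16. ICOS, one of the T cell surface genes called lower, had 16 to 29 counts there and 1 to 4 in FR1 and FR2. CD244 encodes 2B4, so part of its FR1 reads may be the construct's. It was at 129 CPM in FR1 and at 115 CPM in FR2, whose construct lacks the 2B4 domain. The part of the construct in the FR1 value was not tested. Of 3 tested B cell genes, CD79A and CD79B were lower (98 to 175 and 72 to 105 counts in CTRL and hnCD16, at most 7 and 2 in FR1 and FR2) and PAX5 higher (0 to 5 against 656 to 828 counts), with summed levels of 9.19 to 14.7 CPM in CTRL and hnCD16 and 38.3 to 47.4 in FR1 and FR2. The 8 myeloid genes summed to 4.43 to 6.12 CPM in CTRL and hnCD16 and to 8.32 to 14.8 CPM in the FR libraries, with CD14 at 0 to 2 counts, MPO at 0 to 3 and CD163 at 0 or 1 in all libraries; ITGAM and CSF1R were called higher in FR1, and LYZ and CD68 were not called. Their part in the levels of the 10 genes was not tested.

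The genes whose pattern over the 12 libraries was most like that of each gene, by the root mean square difference of centred log2(CPM + 1), were named for the 8 genes with a mean of at least 1 CPM. CD3D was nearest to GTSF1 (0.13) and TSPAN7 (0.18), and TRAT1 to SMIM30 (0.13) and KCTD3 (0.15). CD3E was nearest to SPTBN1 (0.08), which had 374 CPM in hnCD16 and 121 in FR1, and CRACDL (0.08). CD3G was nearest to RBBP9 (0.18) and PAK1 (0.21), CD7 to UNG (0.10) and SPINT2 (0.12), CD5 to FTCD and RGCC (both 0.15), CD6 to ADAMTS1 (0.08) and KCNH2 (0.09), and CD4 to VAV2 and TMSB15A (both 0.12). None of these neighbours in pattern was another of the 10 genes. Since the step between the pairs of groups dominates all 12 libraries, closeness by this measure describes that step on the log2(CPM + 1) scale. The added 1 CPM shrinks the step of genes at low levels. CRACDL, at 1.76 CPM in hnCD16 and 0.039 in FR1, stands near CD3E although its fold decrease is larger.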

How the data were processed

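Libraries were made by the authors after ribosomal RNA depletion, and the labels name oligo(dT) beads as well. Reads were cleaned by SOAPnuke and aligned by HISAT2 2.1.0 to the GRCh38.p13 build, and RSEM 1.3.1 gave the estimates. Bowtie2 2.3.4.3 and DESeq2 1.4.5 are also named in the submitters' processing notes. The deposited expected counts per gene and transcript carry no normalization, and the TPM columns, also deposited, come from the same RSEM run per the methods. Whether counting used strand is not given in the sources used here. The 60 other per-library columns (FPKM and normalised values) were not used. Transcript counts added up to the gene count in 100% of gene values, within 0.02 counts per transcript.

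Expected counts were rounded, and 13657 genes passed edgeR's filterByExpr. They were tested with edgeR 4.0.16 (quasi-likelihood test, TMM, 1 fit of 4 groups), with Benjamini-Hochberg adjustment over all tested genes and calls at an adjusted p of 0.05 or lower with a log2 fold change of 1 or more in either direction. CPM uses TMM library sizes. A group whose libraries all held at most 3 counts gives a bound on the fold change, computed from the mean CPM of 3 counts in that group. This floor covers counting error only. The fit was tested on simulated counts, where 200 of 200 genes changed by a log2 fold change of 2 were recovered with 2 false calls among 12974 genes in FR1 against hnCD16. Only these 200 genes differed, all upward and at a fixed dispersion, whereas 38.3% of tested genes were called in the data. The simulation therefore does not cover changes on that scale or falls to the floor.

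Replicate numbers come from the labels. Alternatives were RLE scaling, library size only, other filters, limma 3.58.1 on TPM with pseudocounts of 1 or 0.1 before the log2, DESeq2 1.42.0, fits of 2 groups, a replicate block, no fold threshold and leaving out each library. The 10 genes and the lists of other genes were chosen with earlier results of these data known. All 10 genes are named. From each list, at most 5 genes were named by largest absolute log2 fold change in FR1 against hnCD16, with mean CPM of at least 1. NCAM1, CD14, MPO, CD163, CD2, CD40LG, CD244, KLRD1, NCR3, FCER1G, PTCRA and SECTM1 were added after their values were seen. So were EOMES, NKG7, KLRF1, KLRB1, TYROBP, SH2D1B and ICOS. Neighbours are the 2 nearest protein-coding genes of the table on each side of a locus, in GENCODE v44. Figures were drawn with matplotlib 3.10.9.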

Additional observations from a re-analysis of the deposited data

Results flagged for a closer look

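CD3E was the only 1 of the 4 genes with a fitted fold change in both fusion receptor groups whose change differed between FR1 and FR2 by the test of the difference, with a log2 fold change of -0.17 (edgeR adjusted p = 0.0412) and all 3 FR1 libraries below all 3 FR2 libraries in CPM. The difference was small beside the decrease of CD3E itself and did not pass the adjusted p in 5 of the 15 alternative settings run for it.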

How the results depend on the processing

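The 10 genes stayed called lower in the 4 comparisons between the pairs under RLE scaling, library size only, no filter, DESeq2, 2-group fits, limma on log2(TPM + 0.1) and each left-out library, with the exception of CD8A under limma on log2(TPM + 1). With at least 10 counts in every library, 4 genes could be tested and all 4 were called in each comparison, and in hnCD16 against CTRL 3 of them passed the adjusted p. Without the fold threshold 6 genes passed in hnCD16 against CTRL and 1 in FR1 against FR2. Counts by adjusted p alone, a rule added after seeing the data, were 3 in hnCD16 against CTRL under limma on log2(TPM + 0.1), and 3 to 6 with a library left out. In FR1 against FR2 they were 0 without a filter, 2 under limma with either pseudocount (CD3E and CD7), and 0 to 1 with a library left out. CD3G in FR1 against FR2 ranged from -0.78 to 0.21 with a library left out and changed sign without FR1 replicate 1 or 3 or FR2 replicate 1; the cause was not tested.

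Same-numbered libraries did not deviate together in every pair (correlations from -0.10 to 0.40, with 0 to 2 of 3 pairs over 0.1), so the numbers were not taken to pair the samples. With the replicate block, the same counts of 10, 10, 10, 10, 0 and 0 genes were called, and 6 and 1 by adjusted p alone. With a library left out, the share of NM_000073 in CD3G in CTRL was 61.6% to 64.0%. Library size only put the median of all genes at -0.22 in FR1 against CTRL and -0.17 in FR2 against CTRL, from -0.03 and -0.04 with TMM. At totals of 17714550 to 18729013 counts, a difference between levels of 3 counts or fewer was not detectable.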
